A study of Arabidopsis thaliana with 18 samples.

Results

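The 7 Arabidopsis genes described here had been picked because their signal in guard cells was higher after leaf strips had been kept with mannitol than after they had been kept with no sugars. They are ABCG40 (AT1G15520), AT4G16260, CSLG2 (AT4G24000), CYP76C2 (AT2G45570), GLYI7 (AT1G80160), AT1G01770 and SQE6 (AT5G24160), 7 of the 22591 probe sets on the array that stand for 1 gene. Each was measured by 1 probe set, found by its gene identifier. The study set guard cells of the null mutant rgs1 beside those of the wild type, both of ecotype Col-0, to ask how sucrose changes guard-cell transcripts. It compared sucrose with mannitol, and used arrays with no sugars to compare guard cells with protoplasts and leaves. Rosette leaves of plants 8 to 10 weeks old were cut into strips 1 mm wide and kept for 5 h in light on 150 mM mannitol, on 150 mM sucrose or without either, in a solution that also held CaCl2 (0.1 mM) and KCl (50 mM). The 6 groups were rgs1 with mannitol, rgs1 with sucrose, rgs1 with no sugars, wild type with mannitol, wild type with sucrose and wild type with no sugars. There were 3 Affymetrix ATH1 arrays a group, 18 together, and an array measured 50 to 100 guard-cell pairs dissected by hand from a single plant. The rgs1 plants were 1 mutant line.

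Guard cells border the stomatal pore and open or close it by taking up or losing water across their plasma membrane. Mannitol is a sugar alcohol that Arabidopsis uses poorly as a carbon source, so that it is added as an osmotic control for sugars. The chosen genes come from different pathways. ABCG40 encodes a plasma-membrane transporter that takes up the stress hormone abscisic acid, AT4G16260 a protein of the beta-1,3-glucanase family, whose enzymes cut the wall polymer callose, and CSLG2 a cellulose synthase-like glycosyltransferase. CYP76C2 encodes a cytochrome P450 of a family that oxidizes monoterpenols, GLYI7 a member of the glyoxalase I family, whose enzymes remove methylglyoxal with glutathione, and SQE6 a member of the squalene epoxidase family, which starts the oxidation of squalene towards sterols. AT1G01770 carries no gene name in the annotation used.

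Values are log2 signals, and a level below 4 was treated as near background. Per array, 47.6% to 49.2% of probe sets reached that level. The array furthest from the others, by its mean correlation with the other arrays, was rgs1 sucrose replicate 1 (r = 0.900), followed in the wild type by sucrose replicate 2 (0.901) and mannitol replicate 2 (0.906). Per the methods, 1 replicate of each group was grown months after the other 2, which themselves came from different batches grown at overlapping times. The labels do not say which it was, and values of replicate 3 are given apart on the assumption that it was this one. RGS1 ran from 3.14 to 5.75 in the 9 rgs1 arrays and from 8.17 to 10.37 in the 9 wild-type arrays, with no overlap. All 8 guard-cell marker genes were at 4 or above on every array, and their mean was 11.47 with mannitol, 11.69 with sucrose and 11.57 with no sugars. The 8 mesophyll markers, also at 4 or above on every array, averaged 10.22 with mannitol (9.78 to 10.65 by array), 9.55 with sucrose (8.52 to 10.18) and 10.46 with no sugars (10.28 to 10.77), and GAPA alone among them passed the test, being lower with sucrose than with no sugars. Their part in the values below was not tested. Of 4 epidermal markers 3 were above 4 on every array and PDF1 was near background. At most 1 of the 2 phloem markers, and at most 1 of the 2 trichome markers, reached 4 on any array. In pooled cells, fewer cells of a type and less RNA per cell cannot be told apart.

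With mannitol, all 7 genes had means 10.5-fold to 61.6-fold above those with no sugars, a difference of 3.39 to 5.94 on the log2 scale. These values chose the genes and are given as a description. By size of the difference, AT4G16260 and GLYI7 took ranks 1 and 2 of the 10913 genes tested, SQE6 rank 8, CSLG2 18, CYP76C2 19, AT1G01770 24 and ABCG40 28. In limma, 4 of the 7 (AT4G16260, CSLG2, CYP76C2 and GLYI7) had an adjusted p under 0.05, where 0.165% of all genes tested were called higher, and since the same arrays chose the genes nothing is read from that count. It was 0 with no filter on low values, and 0 without replicate 2 of each group. Over all genes 5 and 0 were called in either direction in these settings, against 30 as reported. The 6 mannitol arrays lay wholly above the 6 no-sugar arrays for 3 of the 7, as they did for 0.779% of genes tested. Values with no sugars were largely near background for SQE6, CSLG2, AT4G16260 and GLYI7, so that their fold differences depend on the floor of the arrays. For these and ABCG40 at most 3 of the 6 no-sugar arrays reached 4, and they could be tested only through their mannitol arrays.

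**Figure D1:**
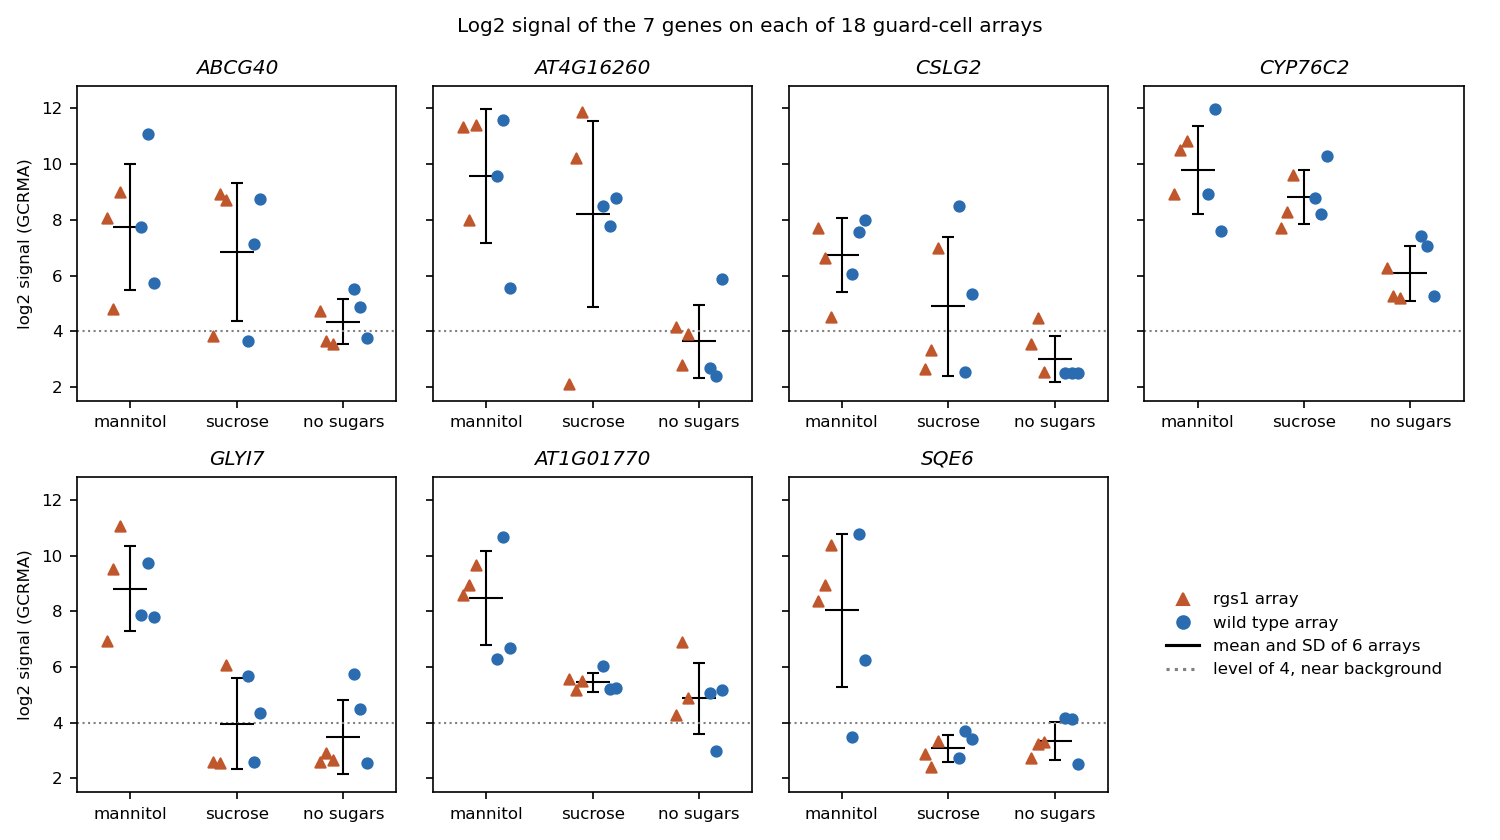
Log2 signal of each gene on the 18 arrays, by treatment, with rgs1 arrays as triangles and wild-type arrays as circles, horizontal bars for the mean and error bars for the SD of 6 arrays. ABCG40, AT4G16260 and CYP76C2 were also high on most sucrose arrays, whereas GLYI7, AT1G01770 and SQE6 with sucrose lay near their levels with no sugars.

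ABCG40, the abscisic acid importer, had log2 signals of 8.06, 4.80 and 9.0 in rgs1 guard cells with mannitol and of 7.75, 11.09 and 5.72 in wild-type guard cells with mannitol. With no sugars it had 4.71, 3.66 and 3.55 in rgs1 and 5.53, 4.87 and 3.76 in the wild type. Thus 5 of the 6 mannitol arrays exceeded every no-sugar array, and rgs1 mannitol replicate 2 lay among them. The means were 7.73 ± 2.26 with mannitol and 4.35 ± 0.81 with no sugars (SD, n = 6 each), a difference of 3.39 (limma standard error 0.85). With sucrose the values were 3.84, 8.92 and 8.71 in rgs1 and 3.66, 7.12 and 8.74 in the wild type. Replicate 1 of each genotype was at the no-sugar level with sucrose, and the other 4 sucrose arrays were above every no-sugar array.

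AT4G16260, the glucanase-family gene, showed the largest mean difference of the 7. It had 11.32, 8.00 and 11.41 in rgs1 and 9.59, 11.60 and 5.56 in the wild type with mannitol, against 4.14, 2.80 and 3.91 in rgs1 and 2.68, 2.41 and 5.88 in the wild type with no sugars. Wild type mannitol replicate 3 and wild type no sugars replicate 3 overlapped, and the other 5 mannitol arrays stood above all no-sugar arrays. The means were 9.58 ± 2.41 with mannitol and 3.64 ± 1.30 with no sugars, a difference of 5.94 (standard error 0.97). It was 3.59 in replicate 3 alone and 7.12 in replicates 1 and 2. With sucrose the gene had 2.09, 10.23 and 11.86 in rgs1 and 8.49, 7.77 and 8.78 in the wild type. The rgs1 sucrose replicate 1, the array furthest from the others, was at background, and all other sucrose arrays were above every no-sugar array. Without that array the sucrose mean was 9.43, and with it 8.20.

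CSLG2, the cellulose synthase-like gene, had 7.71, 6.64 and 4.50 in rgs1 and 6.04, 7.55 and 8.01 in the wild type with mannitol. With no sugars it had 3.56, 4.47 and 2.53 in rgs1 and 2.52, 2.51 and 2.51 in the wild type, where all 3 arrays were near background. The treatments did not overlap, but the lowest mannitol array exceeded the highest no-sugar array by 0.03. Its mean was 6.74 ± 1.32 with mannitol and 3.01 ± 0.83 with no sugars, a difference of 3.73 (standard error 0.58). With sucrose the values split, at 2.65, 3.32 and 7.0 in rgs1 and 8.50, 2.52 and 5.35 in the wild type. Of the sucrose arrays 3 were thus above every no-sugar array, and the other 3 were at 3.32 or below.

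CYP76C2, the cytochrome P450 gene, was above 4 on all 18 arrays. Its values with mannitol were 8.92, 10.50 and 10.81 in rgs1 and 8.91, 11.97 and 7.59 in the wild type, against 6.27, 5.25 and 5.19 in rgs1 and 7.41, 7.07 and 5.26 in the wild type with no sugars. The lowest mannitol array was above the highest no-sugar array by 0.18. Means of 9.78 ± 1.59 with mannitol and 6.08 ± 0.99 with no sugars gave a difference of 3.71 (standard error 0.68). With sucrose it had 7.69, 8.27 and 9.62 in rgs1 and 8.79, 8.20 and 10.28 in the wild type, so that all 6 sucrose arrays, too, were above every no-sugar array.

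GLYI7, the glyoxalase I-family gene, had the widest gap between the treatments. Its values with mannitol were 6.93, 9.52 and 11.04 in rgs1 and 7.87, 9.75 and 7.78 in the wild type, against 2.59, 2.92 and 2.68 in rgs1 and 5.76, 4.48 and 2.56 in the wild type with no sugars. The lowest mannitol array exceeded the highest no-sugar array by 1.17, and the means were 8.82 ± 1.54 with mannitol and 3.50 ± 1.32 with no sugars, a difference of 5.32 (standard error 0.73). With sucrose the gene had 2.59, 2.56 and 6.07 in rgs1 and 5.67, 2.57 and 4.36 in the wild type. Every sucrose array was below every mannitol array, and 5 of 6 lay within or below the range seen with no sugars.

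SQE6, the squalene epoxidase-family gene, was at 8.35, 8.94 and 10.37 in rgs1 guard cells with mannitol. The wild type with mannitol had 3.50, 10.77 and 6.26, the widest scatter of any group of 3 for this gene. With no sugars it had 2.73, 3.22 and 3.30 in rgs1 and 4.16, 4.14 and 2.51 in the wild type. Wild type mannitol replicate 1 was therefore at the no-sugar level and the other 5 mannitol arrays above it. The means were 8.03 ± 2.74 with mannitol and 3.34 ± 0.69 with no sugars, a difference of 4.69 (standard error 1.00). With sucrose all 6 arrays were below 4, at 2.88, 2.42 and 3.34 in rgs1 and 2.74, 3.71 and 3.43 in the wild type.

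AT1G01770 reached 4 on 17 of the 18 arrays. It had 8.57, 8.93 and 9.66 in rgs1 and 6.30, 10.65 and 6.69 in the wild type with mannitol, against 4.26, 6.89 and 4.88 in rgs1 and 5.07, 2.98 and 5.18 in the wild type with no sugars. The rgs1 no sugars replicate 2 was above replicates 1 and 3 of wild type with mannitol, and the other 4 mannitol arrays exceeded all no-sugar arrays. Means of 8.47 ± 1.69 with mannitol and 4.88 ± 1.28 with no sugars differed by 3.59 (standard error 0.76). With sucrose the 6 arrays were nearly level, at 5.58, 5.16 and 5.50 in rgs1 and 6.05, 5.20 and 5.23 in the wild type, all below the lowest mannitol array.

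Sucrose was present at the same concentration as mannitol, and the 7 genes differed in how far their values with sucrose followed those with mannitol. These comparisons share the mannitol or the no-sugar arrays that chose the genes, and are therefore descriptions too. With sucrose AT4G16260 was 4.57, CYP76C2 2.73 and ABCG40 2.48 above its mean with no sugars on the log2 scale (limma standard errors 1.25, 0.53 and 0.92). CSLG2 was 1.88 above (standard error of the 2 means 1.07). AT1G01770 was 0.57 above (limma standard error 0.50). GLYI7 was 0.47 above and SQE6 differed by -0.26, with standard errors of the 2 means of 0.86 and 0.35. These differences varied between replicates. In replicate 3 alone (2 arrays each) sucrose minus no sugars was 5.07 for ABCG40, 5.43 for AT4G16260, 3.66 for CSLG2, 4.73 for CYP76C2 and 2.59 for GLYI7, whereas in replicates 1 and 2 (4 arrays each) it was 1.19, 4.14, 0.98, 1.74 and -0.59. For AT1G01770 and SQE6 it was 0.34 and 0.48 in replicate 3 and 0.69 and -0.63 in replicates 1 and 2. Of the 4 genes with enough arrays at 4 to be tested between sucrose and no sugars, 1 (CYP76C2) was called higher, where 2.34% of all genes tested were, and its groups were the one pair that did not overlap, as 1.78% of genes were higher without overlap.

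**Figure D2:**
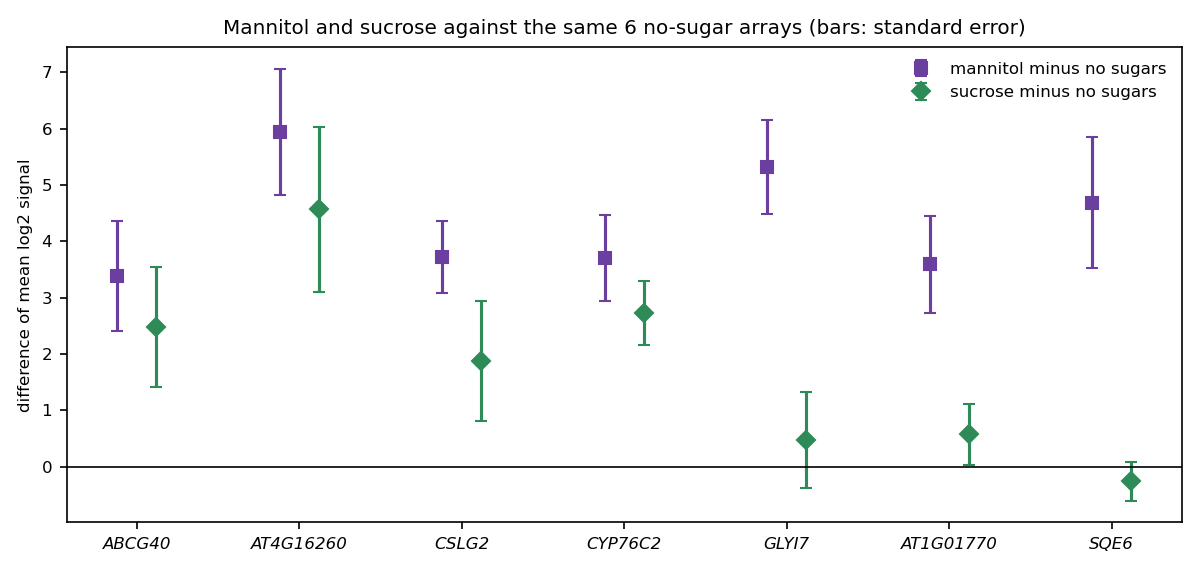
Difference in mean log2 signal from the 6 no-sugar arrays for mannitol (squares) and sucrose (diamonds), with the standard error from both groups of 6 arrays. The differences with mannitol lay between 3.39 and 5.94, and those with sucrose between -0.26 and 4.57.

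Set directly against mannitol, sucrose gave lower means for all 7 genes. The difference was -4.85 for GLYI7 (limma standard error 0.81), -3.02 for AT1G01770 (0.64) and -4.94 for SQE6, which reached 4 on too few of these arrays to be tested here (standard error of the 2 means 1.14). It was -1.85 for CSLG2, -1.38 for AT4G16260, -0.97 for CYP76C2 and -0.90 for ABCG40, with 95% intervals of -3.98 to 0.28, -4.45 to 1.70, -2.44 to 0.49 and -3.43 to 1.62. Of the 6 genes tested 2, GLYI7 and AT1G01770, were called lower, against 1.21% of all genes tested. Both calls were lost with no filter on low values, without replicate 2 of each group and without the 3 arrays with the lowest correlations, where the differences were -3.97 and -2.55. Over all genes 57, 6 and 30 were called in either direction in these settings, against 259 as reported. GLYI7 reached 4 on 3 of the 6 sucrose arrays and on all mannitol arrays, through which it could be tested. GLYI7 and AT1G01770 were also the members whose sucrose arrays all lay below their mannitol arrays, as 1.47% of genes did. The study filtered on present calls instead. It lists AT1G01770 and SQE6 as lower with sucrose than with mannitol, at an adjusted p under 0.05. In replicate 3 alone, with 2 arrays each, ABCG40, AT4G16260 and CYP76C2 were higher with sucrose than with mannitol, by 1.37, 1.83 and 0.75. The standard errors of the 2 means were larger than these differences, at 1.64, 3.31 and 1.64. In replicates 1 and 2 these genes differed by -2.04, -2.98 and -1.84, with standard errors of 1.82, 1.95 and 0.77. GLYI7, AT1G01770 and SQE6 had the same sign in both sets, at -4.20, -2.81 and -4.93 in replicate 3 and -5.17, -3.12 and -4.95 in replicates 1 and 2. Without the 3 arrays with the lowest correlations, ABCG40 and AT4G16260 were 0.44 and 0.66 higher with sucrose than with mannitol, and CYP76C2 differed by -0.10.

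Relatives of these genes, taken by family, are described beside them. Of the other genes of 6 families (full-size ABCG transporters, beta-1,3-glucanases, cellulose synthase-like genes of groups B, E and G, CYP76C and CYP76G, glyoxalases and squalene epoxidases), 53 were on the array, 23 could be tested and 0 were called between mannitol and no sugars by limma, in which 0.275% of all genes were called in either direction. The tested relatives differed by -0.95 to 1.63, with a median of -0.04 beside -0.03 over all genes tested, and 18 relatives were below 4 on every array. Since the 7 were picked for large differences, that their relatives lay below them was set by the choice.

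**Figure D3:**
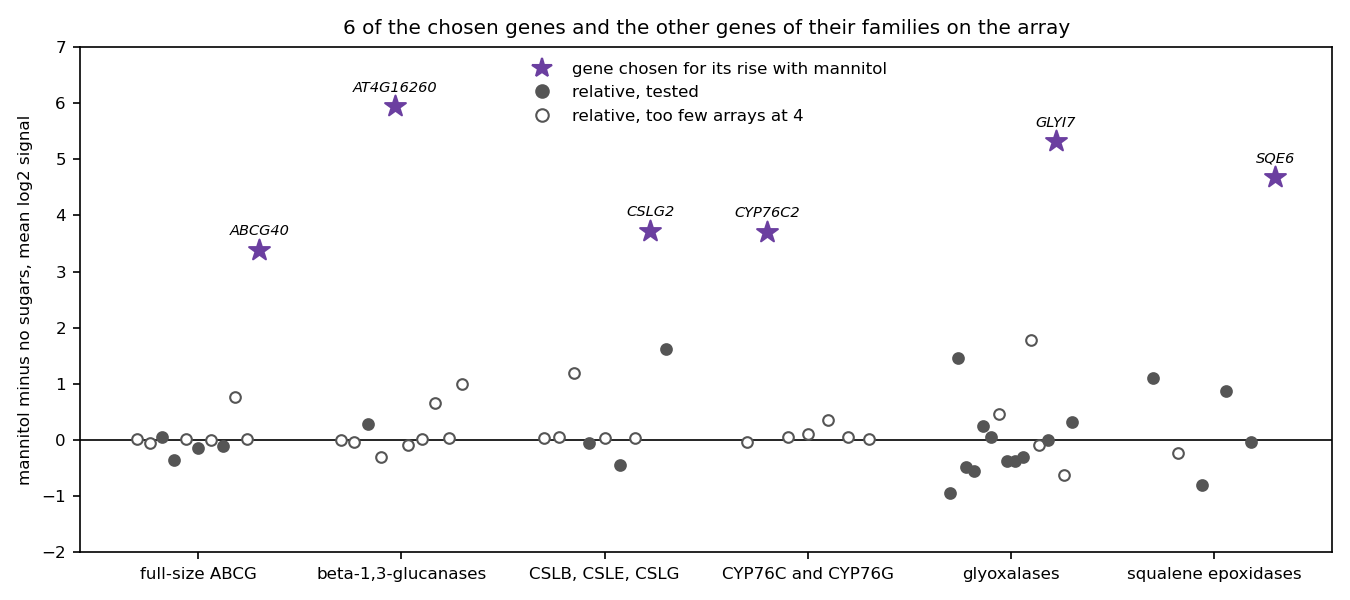
Mannitol minus no sugars, in mean log2 signal of 6 arrays each, for 6 of the chosen genes (stars) and the other genes of their families on the array (filled circles tested, open circles at 4 on too few arrays). Stars lie at 3.39 to 5.94 and circles at -0.95 to 1.78.

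Among the full-size ABCG transporters, ABCG36, ABCG32, ABCG34 and ABCG31 had the highest signals and differed by -0.35 to 0.05, with 0 called. ABCG36, which acts in pathogen defence, averaged 12.50 ± 0.19 with mannitol and 12.61 ± 0.11 with no sugars. ABCG31 averaged 10.93 ± 0.52 with mannitol and 10.88 ± 0.24 with no sugars, and ABCG32, needed for the cuticle, 10.97 ± 0.46 with mannitol and 11.32 ± 0.45 with no sugars. The abscisic acid exporter ABCG25 had 4.96 ± 0.48 with mannitol and 5.99 ± 1.46 with no sugars, and ABCG22 and the importer NPF4.6 differed by -0.37 and -0.17. AT2G27500 was the single other glucanase gene tested, at 8.39 ± 0.85 with mannitol and 8.10 ± 0.74 with no sugars. The CYP76C and CYP76G relatives of CYP76C2 on the array were near background, and CYP76C1, CYP76C3 and CYP76C4, its neighbours on the chromosome, averaged 1.73, 3.22 and 3.27 with mannitol and 1.77, 3.16 and 3.15 with no sugars.

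CSLG2 and SQE6 also lie beside relatives. CSLG3, next to CSLG2, averaged 6.21 ± 1.17 with mannitol, 7.05 ± 1.70 with sucrose and 4.58 ± 1.75 with no sugars, and CSLG1 on its other side averaged 2.15 with mannitol and 2.11 with no sugars. SQE5 and SQE4, near SQE6, averaged 6.99 ± 2.36 and 4.40 ± 1.78 with mannitol and 7.03 ± 1.21 and 3.52 ± 1.47 with no sugars. SQE3, which had the highest signal of its family, averaged 11.70 ± 0.30 with mannitol and 12.51 ± 0.32 with no sugars, a difference of -0.81 that was not called. SQE1, which encodes the main squalene epoxidase of Arabidopsis, averaged 7.88 ± 1.00 with mannitol, 8.28 ± 1.13 with sucrose and 6.77 ± 0.73 with no sugars, and its difference of 1.10 between mannitol and no sugars was not called. Of the 3 genes on either side of each of the 7, 34 of 42 were on the array, 17 were tested and 0 were called, with differences of -0.62 to 1.63.

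Likeness to GLYI7 was not ranked among the glyoxalase genes. GLYI4 was singled out after its values were seen, and reached 4 on 2 of 6 mannitol arrays and on 0 of the others. It was at 2.46, 3.35 and 6.58 in rgs1 and 2.07, 6.39 and 2.04 in the wild type with mannitol, and between 2.02 and 2.07 on all no-sugar arrays. It stood high on the same arrays, rgs1 mannitol replicate 3 and wild type mannitol replicate 2, that had the highest GLYI7 signals in their genotypes, and with sucrose it was at 2.00 to 2.09. ETHE1, a glyoxalase II-like gene that encodes a mitochondrial sulfur dioxygenase, averaged 10.15 ± 0.54 with mannitol and 8.69 ± 0.52 with no sugars, a difference of 1.46 that was not called. Its mannitol arrays (9.56 to 11.12) nevertheless lay wholly above its no-sugar arrays (8.02 to 9.18), as was so for 0.779% of genes tested. Overlap was not counted over the other relatives. GLYI11, GLX2-5 and GLYI3, which had the highest means over all arrays, differed by -0.37, 0.06 and -0.31.

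Genes of the wider pathways were counted in the same way, beside 0.275% of genes called, 48.0% positive and a median of -0.03 over all genes tested. Of 26 tested genes of osmotic stress and abscisic acid response, 0 were called between mannitol and no sugars and 13 had positive differences, with a median of -0.03 and a range of -2.03 to 1.58. RD29A averaged 13.84 with mannitol and 14.19 with no sugars, RAB18 13.91 with mannitol and 14.18 with no sugars, and KIN1 14.28 with mannitol and 14.99 with no sugars, so that these stress-response genes, picked as examples after their values were seen, were at high signal without sugars too. Of 8 tested genes of pathogen and salicylic acid response 0 were called and 7 were positive, with a median of 1.64 and a range of -0.25 to 2.77. Of 18 tested genes of sterol and triterpene synthesis outside the epoxidases 0 were called and 8 were positive, with a median of -0.11.

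Over the 18 arrays, which include the treatments that chose them, their pairwise Pearson correlations ran from 0.34 to 0.88 (21 pairs). Taken as deviations from the 6 group means, they ran from -0.13 to 0.72 with a median of 0.37, and 20 of 21 were positive. Over all pairs of the 10913 genes tested the median was 0.002 and 50.3% were positive. The deviations are not free of the choice, since the genes were picked for high means over the same mannitol arrays. That choice can favour genes high on the same array. The genes tested were not matched to the chosen ones for this or for spread, so nothing is read from the contrast. Within 1 treatment the correlations were less uniform. They ran from -0.67 to 0.96 over the 6 mannitol arrays and from -0.78 to 0.96 over the 6 sucrose arrays. In each treatment 15 of 21 were positive. On the mannitol arrays CSLG2 was negative with all 6 other genes. These points share the arrays and their amplification. In the deviations from group means the highest were 0.72 for CYP76C2 with GLYI7 and for ABCG40 with AT4G16260, then 0.68 for AT1G01770 with SQE6. CSLG2 had the lowest, with correlations of -0.13 to 0.39.

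**Figure D4:**
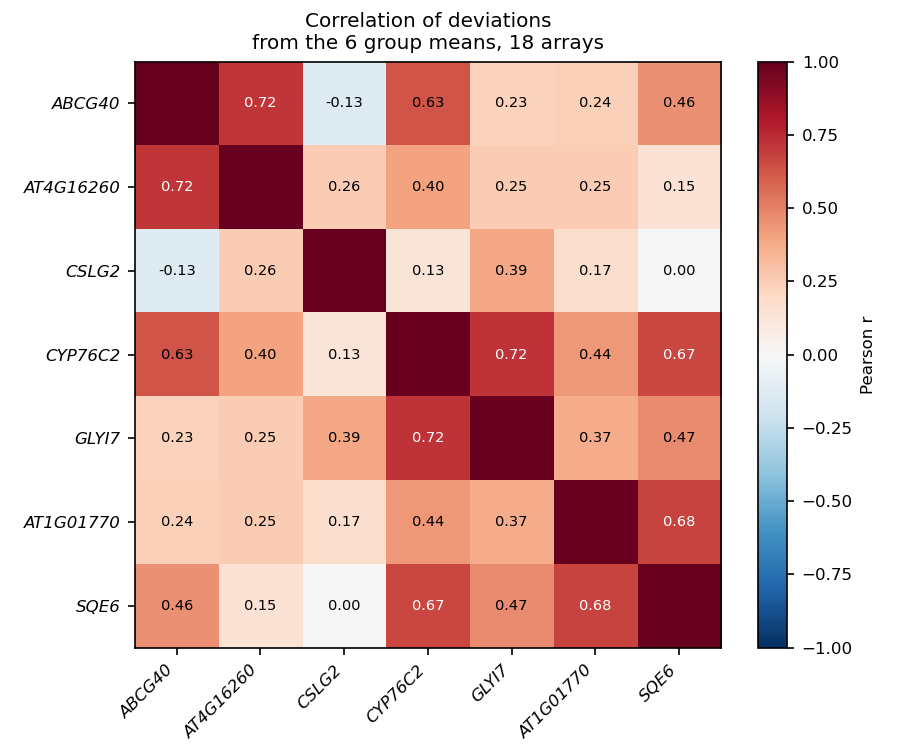
Pearson correlation, over 18 arrays, between the genes' deviations from the mean of their genotype and treatment group, on a colour scale from -1 to 1. ABCG40 with AT4G16260 and CYP76C2 with GLYI7 stood at 0.72, and CSLG2 had the lowest values.

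Wild type mannitol replicate 2, one of the arrays furthest from the others, was above the mannitol mean for all 7 genes and held the highest mannitol value of 5 (all but CSLG2 and GLYI7). The mean of the 7 genes on it was 10.48, against 7.14 and 6.80 on the other 2 wild-type mannitol arrays and 8.19 to 9.54 on the rgs1 mannitol arrays. Without this array the difference between mannitol and no sugars was 2.72 for ABCG40, 5.54 for AT4G16260, 3.57 for CSLG2, 3.27 for CYP76C2, 5.13 for GLYI7, 3.15 for AT1G01770 and 4.14 for SQE6. Among the sucrose arrays, rgs1 sucrose replicate 3 was above the mean for all 7 genes and rgs1 sucrose replicate 1 had the lowest mean over them (7.44 and 3.90). The spread within mannitol was 1.32 to 2.74 (SD over 6 arrays), above the 0.75 that is the median over genes tested. The genes were picked on these mannitol arrays and the genes tested were not matched to them, so nothing is read from the contrast. With sucrose the SD was 3.33 for AT4G16260, 2.48 for ABCG40 and for CSLG2, 1.63 for GLYI7 and 0.97 for CYP76C2, beside a median of 0.80 over genes tested. It was 0.34 for AT1G01770 and 0.48 for SQE6, which was below 4 on all 6 arrays.

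The comparison of genotypes did not enter the choice of the genes and asks whether loss of RGS1 altered their levels. None of the 6 that could be tested over all treatments differed between rgs1 and the wild type in limma, with differences of -0.43 to 0.68 and a smallest unadjusted p of 0.218 for AT1G01770 (adjusted p = 0.927), where 0.00921% of all genes tested were called, a single gene. With mannitol, 0 of 7 were called (0 of 11142 genes, 513 at an unadjusted p under 0.05), with no sugars 0 of 3 (0 of 11068 genes, 435 unadjusted), and with sucrose 0 of 6 (0.00894% of genes, 303 unadjusted). Of the 7, 0 had an unadjusted p under 0.05 in any of them.

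The intervals were wide, and included differences of several fold in either direction for most of the genes. With mannitol, rgs1 minus wild type was 2.38 for SQE6 (limma standard error 1.68, 95% interval -1.56 to 6.31, adjusted p = 0.983), and all 3 rgs1 arrays lay within the range of the wild-type arrays. It was 1.33 for AT4G16260 (interval -2.43 to 5.09), 1.17 for AT1G01770 (-1.46 to 3.81) and -0.90 for ABCG40 (-4.52 to 2.72). With sucrose AT1G01770 had the narrowest interval, -1.23 to 1.07 around -0.08. For CSLG2 with no sugars the lowest rgs1 value was 0.01 above the highest wild-type value, and 1 of these 6 arrays reached 4, too few for a test.

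**Figure D5:**
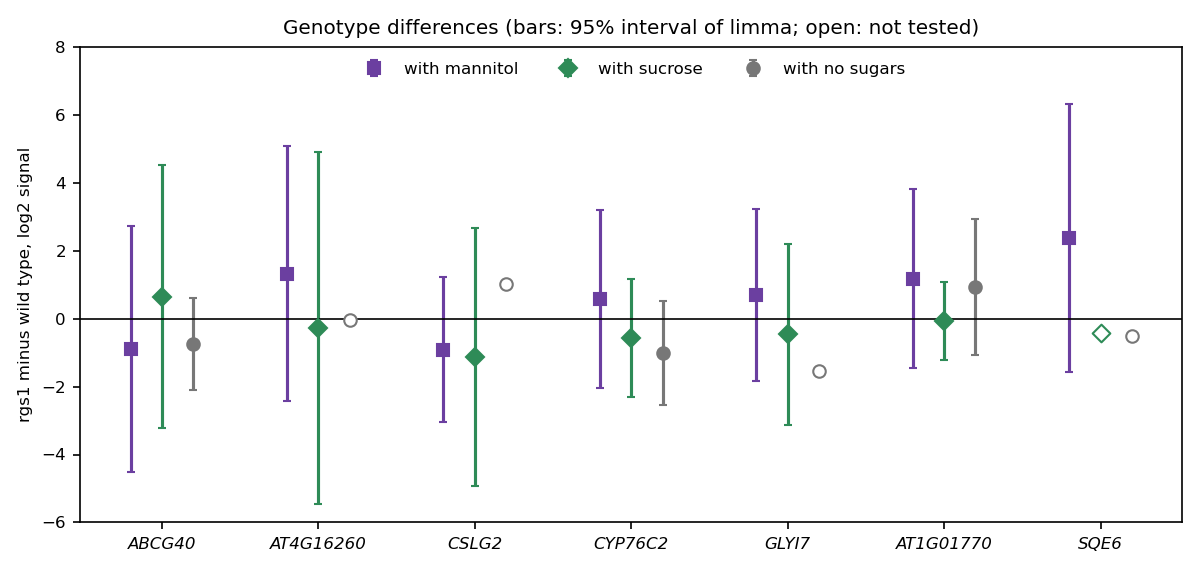
Difference of rgs1 minus wild type in log2 signal with mannitol, sucrose and no sugars, 3 arrays each, with limma's 95% intervals, and open symbols where too few arrays reached 4 for a test. Every interval includes 0.

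The difference between mannitol and no sugars was also compared between the genotypes. It was 3.31 in rgs1 and 3.46 in the wild type for ABCG40, 6.63 and 5.26 for AT4G16260, 4.51 and 2.91 for CYP76C2, 6.44 and 4.20 for GLYI7, 3.71 and 3.47 for AT1G01770, 6.14 and 3.24 for SQE6 and 2.77 and 4.69 for CSLG2, in each case rgs1 before the wild type. The interaction was thus largest for SQE6, at 2.90 (standard error 1.69, 95% interval -0.68 to 6.47, limma adjusted p = 0.9997, unadjusted p = 0.105). GLYI7 followed at 2.24 (-1.19 to 5.67) and CSLG2 at -1.92 (-5.81 to 1.96). With no sugars, SQE6 (2.73 to 3.30) and GLYI7 (2.59 to 2.92) in rgs1 and CSLG2 (2.51 to 2.52) in the wild type were below 4 on all arrays. The sizes of their interactions therefore depend on the floor of the arrays. Of the 7 genes 0 were called for this interaction, where 0.00793% of genes were (388 at an unadjusted p under 0.05), and 0 for the interaction of genotype and sucrose (0 of 12608 genes, 499 unadjusted).

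The genes whose log2 signals followed each of the 7 most closely over the 18 arrays, among 12505 with at least 3 arrays at 4, were named by rank alone. These correlations include the differences between treatments. The nearest to ABCG40 was PAD3 (r = 0.91), which encodes the P450 of the last step of synthesis of the phytoalexin camalexin. PAD3 had 7.36, 3.79 and 9.06 in rgs1 and 8.06, 11.76 and 5.75 in the wild type with mannitol, against 5.56, 5.06 and 4.17 in rgs1 and 4.10, 6.0 and 4.24 in the wild type with no sugars, and, like ABCG40, it was low in rgs1 mannitol replicate 2 and highest in wild type mannitol replicate 2. Its mean with sucrose was 8.00 ± 2.28. The second was AT2G33490 (0.88).

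AT4G16260 was followed by the cation exchanger gene CAX7 (r = 0.88) and by MAPKKK19 (0.87), a protein kinase gene that averaged 9.07 ± 2.16 with mannitol, 8.32 ± 2.87 with sucrose and 3.83 ± 1.32 with no sugars. CSLG2 was followed by the transcription factor gene MYB2 (0.82), known from responses to drought and abscisic acid, at 7.93 ± 1.22 with mannitol, 6.19 ± 2.01 with sucrose and 3.41 ± 1.03 with no sugars, and by the plastid fibrillin gene FIB (0.82). CYP76C2 had the aldehyde dehydrogenase gene ALDH2B7 (0.87) and the proteasome subunit gene RPT4A (0.86) nearest to it. ALDH2B7 averaged 6.82 ± 2.07 with mannitol, 5.83 ± 2.37 with sucrose and 2.96 ± 0.35 with no sugars. All of these had higher means with both mannitol and sucrose than with no sugars, as did their partners among the 7. Ranking by correlation over all treatments favours such a likeness, so it is no separate result.

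The genes nearest to GLYI7 and SQE6 were low with sucrose instead, as were GLYI7 and SQE6, a likeness that the same ranking favours. D2HGDH, a mitochondrial D-2-hydroxyglutarate dehydrogenase gene, correlated with GLYI7 at 0.85 and averaged 9.94 ± 0.53 with mannitol, 8.23 ± 0.43 with sucrose and 8.46 ± 0.48 with no sugars. The beta-glucosidase gene BGLU16 (0.85) averaged 9.96 ± 1.16 with mannitol, 7.82 ± 0.71 with sucrose and 7.96 ± 0.85 with no sugars. AT1G01770 had AT3G19900 (0.89) and the ornithine aminotransferase gene DELTA-OAT (0.88) nearest to it, and DELTA-OAT averaged 9.86 ± 0.68 with mannitol, 8.78 ± 0.39 with sucrose and 8.31 ± 0.54 with no sugars. SQE6 was followed by AT5G40690 (0.92) and by LOG1 (0.91), of the family that releases active cytokinins, and LOG1 reached 4 on 4 of 6 mannitol arrays and on 0 of the sucrose and no-sugar arrays.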

How the data were processed

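The deposited log2 values, 1 for each of 22746 probe sets on 18 ATH1 arrays, had been made by the authors from RNA amplified in 2 rounds, with Microarray Suite and GCRMA, which corrects background, normalizes between arrays and combines probes. They were used unchanged. A probe set was named by the gene identifier deposited with it, and 22091 of the 22591 with a single identifier matched the reference annotation, used for names and neighbours only. Differences were fitted with limma 3.58.1 in R 4.3.3 (constant prior, Benjamini-Hochberg adjustment over all genes tested, adjusted p under 0.05), after a test on simulated data. Genes entered a test when the number of arrays at 4 or above came to the size of the smaller group (the same 12608 genes for both interactions, fitted on 18 arrays). Treatments were compared with genotypes pooled. The number of arrays limits the precision.

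The 7 genes and all gene lists were chosen with earlier results of these data known. Other genes named are the relatives with the highest means, up to 4 a family, neighbours of the 7, the 2 genes most correlated with each, RGS1 and list members given as examples after their values were seen. A promoter motif search was not run. Alternatives were a filter at 6 or none, centring on medians, quantile normalization, a prior with an intensity trend, 1 fit of all arrays, the replicate number as a block, replicate 3 as a batch term, genotype as a term, replicates 1 and 2 only, leaving out each array or replicate, and, chosen after seeing the data, replicate 3 alone and leaving out the 3 arrays with the lowest correlations. Each sample came from 1 plant, per the methods.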

Additional observations from a re-analysis of the deposited data

How the results depend on the processing

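All 7 differences between mannitol and no sugars kept their sign in all 27 alternatives. Since the same arrays chose the genes for large differences of this sign, nothing is read from that. The number of the 7 with an adjusted p under 0.05 was 4 as reported, 0 with no filter, 2 with a filter at 6 (of 3 tested), 1 with replicates 1 and 2 only, 0 with replicate 3 alone and 2 without the 3 arrays with the lowest correlations. Leaving out replicates or single arrays gave 0 to 6: 0 without replicate 2, 1 without replicate 3, 2 without replicate 1, wild type mannitol replicate 2, rgs1 mannitol replicate 3, or rgs1 no sugars replicate 2 or 3, and 6 without wild type mannitol replicate 1. In 1 fit of all arrays it was 4, but with AT1G01770 and SQE6 in place of AT4G16260 and CSLG2. For sucrose against mannitol the number was 2 as reported, 0 with no filter, with replicate 3 alone and without the 3 arrays, 1 with replicates 1 and 2 only, and 0 to 3 when leaving out replicates or arrays, with 0 without replicate 2 and 1 without replicate 3, rgs1 mannitol replicate 2 or 3 or rgs1 sucrose replicate 2. For sucrose against no sugars it was 1 as reported, 0 with no filter, replicates 1 and 2 only or replicate 3 alone, 2 with an intensity trend, the replicate block, replicate 3 as a batch term or without the 3 arrays (AT4G16260 joining CYP76C2), and 0 to 3 when leaving out replicates or arrays, with 0 without replicate 2 or 3, 3 without replicate 1 and 2 without rgs1 sucrose replicate 1. The cause was not tested, apart from fewer arrays or other genes tested. In every genotype comparison and interaction 0 were called under all alternatives run.

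Over all genes, the calls between mannitol and no sugars were 30 as reported, 5 with no filter or with replicates 1 and 2 only, 16 without the 3 arrays and 0 with replicate 3 alone. For sucrose against mannitol they were 259 as reported, 57 with no filter, 496 in 1 fit of all arrays, 110 with replicates 1 and 2 only, 30 without the 3 arrays and 0 with replicate 3 alone, and for sucrose against no sugars 449 as reported, 164 with no filter, 173 with replicates 1 and 2 only or without the 3 arrays and 0 with replicate 3 alone. Without replicate 2 of each group the calls over all genes were 0, 6 and 27 in the same order. Same-numbered samples deviated from their group means with a mean correlation of 0.02 (45 pairs), so the numbers were not taken to pair the samples. The -0.01 for 90 other pairs is tied to it, since each group was centred on its own mean, and is no separate comparison. The replicate block changed no other count of the 7. Interactions could not be fitted with replicate 3 alone. Averaging probe sets was not run, since each gene has 1.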
